A study of Mus musculus with 6 samples.

Results

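The MHC class I antigen presentation genes followed here were H2-K1 and H2-D1, which encode the classical class I heavy chains, B2m, which encodes their light chain β2-microglobulin, Tap1, Tap2 and Tapbp, which act in peptide transport and loading, Psmb8 and Psmb9, which encode subunits of the immunoproteasome, and the transcription factor genes Nlrc5 and Irf1. The 10 genes were chosen for their role in the pathway, with earlier results of these data known. A peak of accessible chromatin was assigned to them when it lay in the gene body or within 10 kb of it (GENCODE M21, mouse build mm10), and was called a promoter peak when it lay within 2000 bp of a transcription start site. Of 41308 consensus peaks in the series, 27 met this rule. Of these, 11 were promoter peaks of the listed genes, 8 were promoter peaks of other genes that lie close by, and 8 were at no promoter.

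ATACseq, in which a transposase cuts accessible DNA so that the fragments over a region report how open it is, was performed on GL261, a mouse glioma cell line. All cells stably expressed pEGFP-N1, a green fluorescent protein vector, were grown in DMEM with 10% FBS and were fixed with formaldehyde before transposition. The groups were normoxia (21% O2), 1% O2 for 16 h and <0.1% O2 for 16 h, each with 2 libraries, so the 6 libraries come from 1 cell line in culture without immune cells or stroma. Nothing states that the 2 libraries of a group came from separate cultures, so their spread may be technical, and in bulk cells a change in the share of open cells cannot be told apart from a change in every cell.

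MHC class I molecules carry peptides cut by the proteasome to the cell surface, where CD8+ T cells read them. The TAP transporter moves the peptides into the endoplasmic reticulum, tapasin bridges TAP to the empty heavy chain and β2-microglobulin, and the filled complex leaves for the surface. The genes are induced together by interferon: their promoters carry sites for NF-κB and for interferon regulatory factors, and an SXY module that holds a CRE-like element and a CCAAT-like box and recruits NLRC5, the class I transactivator. Tumour cells, gliomas among them, can evade T cells by keeping this pathway low.

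The deposited peak lists gave 33006 to 43554 peaks per library. From the fold and the p-value of each peak, the number of fragments stacked at its summit (the summit pileup) and the local background were recovered as the values the peak caller had used. The smallest background, which is the genome-wide coverage, was 2.16 and 2.36 (21% O2), 2.93 and 2.99 (1% O2), and 3.35 and 3.18 (<0.1% O2), so all 4 hypoxic libraries were deeper than both normoxic ones and depth and hypoxia cannot be told apart. To compare libraries, the 28432 consensus peaks with a peak in all 6 libraries were given percentile ranks within each library, once by the fold over local background (fold rank) and once by the summit pileup (pileup rank). A peak was called higher or lower when the 2 libraries of a hypoxic group were on one side of the 2 normoxic libraries and the mean rank moved by 10 points or more. With 2 libraries against 2, no exact permutation test can go below p = 0.33 (two-sided), so no p is given for a peak. Both hypoxic groups were compared with the same 2 normoxic libraries. Summit pileups are also given divided by the genome coverage of their library. On that scale the median of all ranked peaks moved by +0.13 (log2) at 1% O2 and -0.17 at <0.1% O2, and that of promoter peaks by +0.09 and -0.37.

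The labelled cell type was checked against markers. All 8 glial and glioma markers (Nes, Sox2, Olig2, Gfap, S100b, Vim, Cd44 and Slc1a3) had a promoter peak. Of 8 microglia and leukocyte markers only Csf1r had a consensus promoter peak, and Ptprc, Cx3cr1, Itgam, Aif1, Tyrobp and Spi1 had none in any library. Of 4 endothelial markers, Pecam1 had a promoter peak, though not in all libraries, and Cdh5, Tek and Kdr had none in any library.

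The sequences before the start sites of H2-K1, B2m and Irf1 are shown because they lie under the promoter peaks and hold the regulatory letters of the pathway (mm10, sequences from RefSeq, each 200 bases written 5′ to 3′ toward the start site, which is that of RefSeq for H2-K1 and Irf1 and that of GENCODE, 1 base earlier, for B2m). H2-K1 is on the minus strand at chr17:34000348-34000547, B2m on the plus strand at chr2:122147486-122147685 and Irf1 on the plus strand at chr11:53769814-53770013. Capitals mark matches on either strand to the letters searched, which were the interferon-stimulated response element ISRE (GAAANNGAAA), a shortened form of it chosen after the sequences were seen (GAANNGAAA), the gamma-activated site GAS (TTCNNNGAA), CCAAT, the CRE core (TGACG), NF-κB (GGGNNTTCCC or GGGNNTTTCC) and the hypoxia response core (ACGTG or GCGTG).
H2-K1: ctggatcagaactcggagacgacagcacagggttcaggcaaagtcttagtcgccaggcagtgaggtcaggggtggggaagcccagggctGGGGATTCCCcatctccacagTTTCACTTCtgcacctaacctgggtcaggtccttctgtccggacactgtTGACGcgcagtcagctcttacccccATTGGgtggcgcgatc
B2m: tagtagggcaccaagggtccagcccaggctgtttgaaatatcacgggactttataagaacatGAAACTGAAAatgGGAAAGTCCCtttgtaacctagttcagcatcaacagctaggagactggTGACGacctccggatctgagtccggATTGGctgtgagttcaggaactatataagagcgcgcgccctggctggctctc
Irf1: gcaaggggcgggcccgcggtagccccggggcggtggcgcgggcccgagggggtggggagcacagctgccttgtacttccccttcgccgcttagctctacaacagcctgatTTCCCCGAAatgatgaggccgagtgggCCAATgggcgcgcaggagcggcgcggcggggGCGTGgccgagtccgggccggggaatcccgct

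In H2-K1 the capitals are, in order, an NF-κB match, a shortened ISRE match, a CRE core and a CCAAT box on the opposite strand. In B2m they are a full ISRE, NF-κB, a CRE core and CCAAT on the opposite strand, and in Irf1 a GAS, CCAAT and a hypoxia response core. Stretches of 30 bases are given for 4 promoters, at chr17:34000429-34000458 (minus strand), chr17:35262923-35262952 (plus), chr17:34187457-34187486 (plus) and chr17:34198087-34198116 (plus), to set the paired NF-κB and shortened ISRE matches of both heavy chains side by side and to show the CRE core of Tap1 and the GAS of Psmb8.
H2-K1 site: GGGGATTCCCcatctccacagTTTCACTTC
H2-D1 site: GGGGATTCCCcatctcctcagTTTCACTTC
Tap1 site: gcccagagacaggTGACGacagagggtcct
Psmb8 site: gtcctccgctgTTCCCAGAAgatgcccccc

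The heavy chain sites were identical at 29 of 30 bases. Over the 250 bases before each start site, 48.1% of 264 aligned columns were identical from the H2-K1 start site used above (34000347), and 63.2% of 296 from its other RefSeq start site (34000333). In the RefSeq promoter table (GRCm38.p6, 250 bases before to 50 after each start), 8 of the 10 genes had a window, and Nlrc5 and Tap2 are named only. NF-κB letters were found in 3 of these 8 genes (H2-K1, H2-D1 and B2m) and in 3.24% of all 32851 windows. The CRE core was in 5 genes (H2-K1, H2-D1, B2m, Tap1 and Psmb9) against 20.8% of windows, and CCAAT was in 7, all but Psmb8, against 37.4%. The full ISRE was in B2m alone against 3.44%, its shortened form in H2-K1 and H2-D1 against 7.52%, and GAS in Psmb8 and Irf1 against 8.30%. The hypoxia response core was in 6, all but B2m and Tapbp, against 43.8% of windows. The windows of Tap1 and Psmb9 overlap and hold the same CRE core, CCAAT and hypoxia response core matches, which are counted here for each gene. These matches describe letters and not bound sites.

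Every one of the 10 genes had a promoter peak in the normoxic libraries, and none lost all of its promoter peaks in hypoxia. By summit pileup the promoters of H2-K1, H2-D1, Psmb8, the first of Tap2 and the one shared by Tap1 and Psmb9 stood higher among all peaks at 1% O2, and those of H2-K1, H2-D1 and Psmb8 also at <0.1% O2. The Tap2 call, by either measure, was lost without 1 library, whose peak spanned both Tap2 peaks. By fold over local background the picture was mixed: B2m was lower in both hypoxic groups and Nlrc5 at <0.1% O2, whereas H2-K1 was higher in both, the first Tap2 peak at 1% O2, and Psmb8 and the promoter shared by Tap1 and Psmb9 at <0.1% O2. Irf1 was called by neither measure as ranked here. At <0.1% O2 it was called higher by both measures with the GC trend subtracted, and by fold rank without 1 normoxic library.

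Of the 11 member promoter peaks, 10 were present in all 6 libraries and could be ranked. At 1% O2, the fold rank called 1 lower (16.5% of all 12959 ranked promoter peaks were) and 2 higher (11.9% of all). At <0.1% O2 it called 2 lower (26.5% of all) and 3 higher (12% of all). By pileup rank, 0 were lower (16.5% of all) and 5 higher (11.8% of all) at 1% O2, and 0 were lower (32.0% of all) and 3 higher (10.2% of all) at <0.1% O2. The median change of the 10 peaks was +1.25 points in fold rank at 1% O2, where that of all promoter peaks was -0.96, and +7.87 at <0.1% O2, where that of all was -2.52. With peak lists of equal length the first of these medians was -0.0020, where that of all promoter peaks was -1.22. In pileup rank the medians were +8.90 against -0.40 at 1% O2 and +9.47 against -3.86 at <0.1% O2. Between <0.1% and 1% O2 no member promoter was called by either measure. Of all 12959 promoter peaks, 2661 were lower and 1185 higher in that comparison by fold rank, and 2836 were lower and 504 higher by pileup rank.

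**Figure D1:**
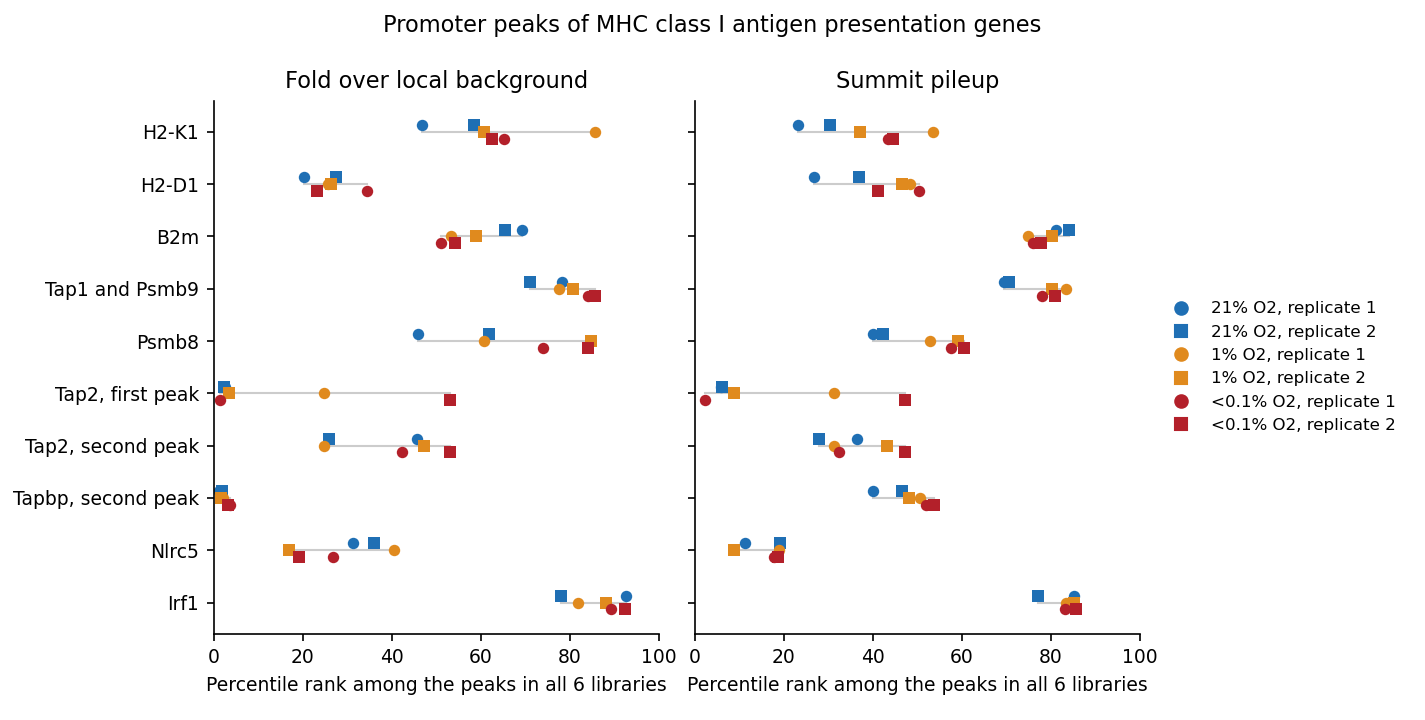
Percentile rank (horizontal axis, 0 to 100) of the 10 member promoter peaks in each library among the 28432 peaks in all 6 libraries, by fold over local background (left) and by summit pileup (right). Colours mark the O2 level, circles replicate 1 and squares replicate 2. In the right panel all 4 hypoxic points of H2-K1, H2-D1, Psmb8 and the Tap1 and Psmb9 promoter lie to the right of both normoxic points, and in the left panel all 4 of B2m lie to the left.

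**Figure D2:**
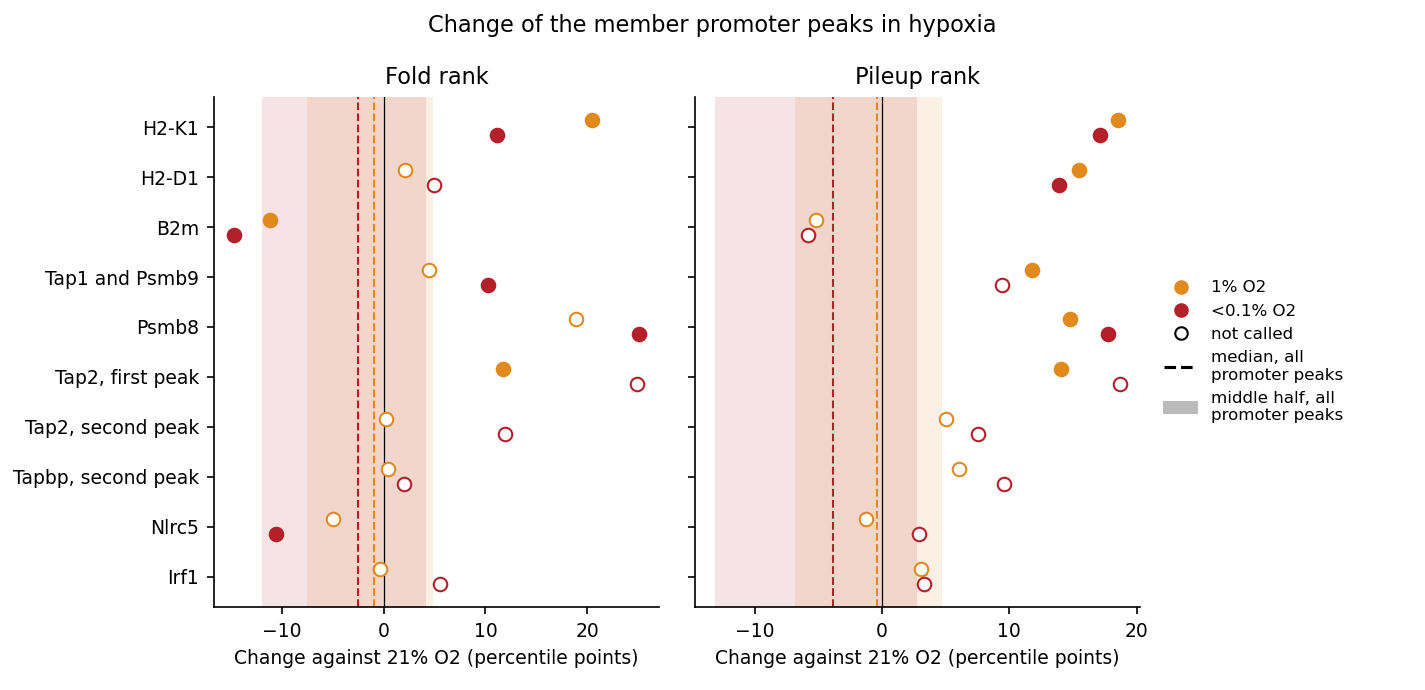
Change of the mean rank against 21% O2, in percentile points, of each member promoter peak at 1% O2 and <0.1% O2. Filled points were called and open points were not, dashed lines mark the median of all 12959 promoter peaks and shading the range between their quartiles. By pileup rank at <0.1% O2, 9 of the 10 member peaks lie above 0 and the median of all promoter peaks lies at -3.86.

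H2-K1 encodes the K heavy chain. Its promoter peak spanned chr17:33999909-34000830 (922 bp, minus strand gene) and had its median summit 25 bases upstream of the start site, in the sequence printed above. The summit pileup was 33 and 50 fragments at 21% O2, 116 and 75 at 1% O2, then 87 and 74 at <0.1% O2. Every hypoxic library was above both normoxic ones, also per genome coverage (15.3 and 21.2, then 39.6 and 25.1, then 26.0 and 23.3), where the mean moved by +0.83 (log2) at 1% O2 and +0.43 at <0.1% O2. The pileup rank rose from 26.9 ± 5.05 (SD, n = 2) to 45.4 ± 11.6 at 1% O2 and 44.0 ± 0.787 at <0.1% O2, changes of +18.5 and +17.1 points that were both called. The fold rank rose from 52.7 ± 8.31 to 73.1 ± 17.7 and 63.8 ± 1.76, also called at both levels. The sizes rested on single libraries: without 1% O2 replicate 1 the pileup rank change at 1% O2 was +10.3 and the fold rank change +7.94 and no longer called, while without 1% O2 replicate 2 the fold rank change of +20.5 was +33.0. The fold rank change at <0.1% O2 of +11.2 was +5.30 without 21% O2 replicate 1 and +9.93 without <0.1% O2 replicate 1, neither called, and +17.1 without 21% O2 replicate 2.

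H2-D1 encodes the D heavy chain and also lies on chromosome 17. Its promoter peak, chr17:35262677-35263475, had its summit 101 bases upstream of the RefSeq start and 263 bases inside the gene by GENCODE. The summit pileups were 36 and 59 at 21% O2, 104 and 91 at 1% O2, then 100 and 69 at <0.1% O2, with no overlap between normoxic and hypoxic libraries. Per genome coverage they were 16.7 and 25.0, then 35.5 and 30.4, then 29.9 and 21.7, so that <0.1% O2 replicate 2 lay within the normoxic range (log2 +0.66 and +0.31). The pileup rank rose from 31.9 ± 7.17 to 47.4 ± 1.25 and 45.8 ± 6.61 (SD, n = 2), called at both levels. The call at <0.1% O2 (+13.9) was lost without 21% O2 replicate 1 (+8.81) or without <0.1% O2 replicate 1 (+9.20), and the change was +21.1 after subtraction of the trend with GC content. The fold ranks of 20.4 and 27.5, then 25.6 and 26.4, then 34.3 and 23.3 overlapped and were not called, though q-value ranks were called higher at both levels (+13.2 and +12.4). The local background, read around the peak, was 4.84 and 6.66 fragments in normoxia and 8.87 to 11.3 in hypoxia.

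The 2 heavy chain genes are close relatives, and reads that map to several places were removed by the authors. All 76-base stretches (the read length) of both promoter peaks occurred once in mm10, so an exact read from them had 1 place to map.

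B2m, on chromosome 2, encodes β2-microglobulin. Its promoter peak, chr2:122146838-122148754 (1917 bp), had its summit 81 bases upstream of the start. Its pileup rank was 74.8 to 84.1 over the 6 libraries and its fold rank 51.1 to 69.2. The summit pileup was 128 and 191 at 21% O2, 184 and 190 at 1% O2, then 174 and 152 at <0.1% O2, which overlap, while per genome coverage it was 59.3 and 81.0, then 62.9 and 63.5, then 52.0 and 47.8. Only at <0.1% O2 did both libraries lie below both normoxic libraries on that scale (log2 -0.49, where all promoter peaks had -0.37). The fold rank fell from 67.3 ± 2.72 to 56.1 ± 4.10 at 1% O2 and 52.6 ± 2.12 at <0.1% O2 (SD, n = 2), called lower at both levels. At 1% O2 the change of -11.2 was -9.30 without 21% O2 replicate 1 and -8.32 without 1% O2 replicate 1, and not called. Ranks of the peak's q-value gave -6.23 and -8.25 and ranks within the whole peak list -4.13 and -7.80 (1% and <0.1% O2), none of them called. The whole lists were longer in all hypoxic libraries, and under that ranking the median of all promoter peaks moved by +2.16 and +0.10. The pileup rank changed by -5.18 and -5.86 points, with all 4 hypoxic libraries below both normoxic libraries but short of a call. By fold rank B2m and H2-K1, which form the same complex, were called in opposite directions at both levels.

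Tap1, Psmb9, Psmb8 and Tap2 lie side by side on chromosome 17. Tap1, one chain of the peptide transporter, and Psmb9, a catalytic subunit of the immunoproteasome, are transcribed away from each other from start sites 226 bases apart in RefSeq (in GENCODE the ends of both genes overlap) and share 1 promoter peak, chr17:34187126-34188284. The summit pileup was 96 and 132 at 21% O2, 231 and 191 at 1% O2, then 184 and 166 at <0.1% O2, again without overlap. Per genome coverage it was 44.5 and 56.0, 78.9 and 63.8, and 55.0 and 52.2, so that at <0.1% O2 it lay within the normoxic range (log2 +0.51 and +0.09). The pileup rank rose from 70.1 ± 0.822 to 81.8 ± 2.11 at 1% O2 (+11.8, called) and 79.5 ± 1.96 at <0.1% O2 (+9.40, not called). The last was called by whole-list rank (+10.6), with equal list lengths (+10.6), with the GC trend subtracted (+15.5) and without <0.1% O2 replicate 1 (+10.8). The fold rank rose from 74.6 ± 5.03 to 79.1 ± 2.1 (not called) and to 84.9 ± 1.12 at <0.1% O2 (+10.3, called). That call was lost without 21% O2 replicate 2 (+6.70) or <0.1% O2 replicate 2 (+9.47), and by q-value rank (+9.47).

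Psmb8 encodes another catalytic subunit of the immunoproteasome, and its promoter peak was chr17:34197405-34198574. The pileup at the summit was 49 and 67 at 21% O2, 114 and 118 at 1% O2, then 115 and 102 at <0.1% O2. Normoxic and hypoxic libraries were well apart, also per genome coverage (22.7 and 28.4 against 32.1 to 39.4, log2 +0.62 and +0.38). The pileup rank rose from 41.2 ± 1.66 to 56.0 ± 4.54 and 59.0 ± 2.11 (SD, n = 2), and both changes (+14.8 and +17.8) were called with any single library left out. The fold rank rose from 53.9 ± 11.2 to 79.0 ± 7.19 at <0.1% O2 (+25.1, called). As ranked here this was the largest rise among the member promoters by fold rank, narrowly ahead of the first Tap2 peak (+24.9, not called). At 1% O2 the fold rank of Psmb8 was 60.7 and 84.8. The first of these lay below the 61.8 of 21% O2 replicate 2, so the change of +18.9 points was not called. It was called by q-value rank (+16.9), by whole-list rank (+19.7), without 21% O2 replicate 2 (+26.8) and without 1% O2 replicate 1 (+30.9), and was +6.80 without 1% O2 replicate 2.

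Tap2, the other chain of the transporter, had 2 promoter peaks, chr17:34204441-34205065 and chr17:34205444-34206196. In 1% O2 replicate 1 and <0.1% O2 replicate 2 a single library peak of 1727 and 1742 bp spanned both, so their values there are shared and come from the second summit. The first peak had pileups of 20, 24, 72, 36, 26 and 78 (library order 21%, 1% and <0.1% O2, replicate 1 before 2), and the high values are those 2 libraries. It was called higher at 1% O2 by both measures (+11.8 in fold rank, +14.1 in pileup rank), and without 1% O2 replicate 1 these changes were +1.12 and +2.89 and not called. With both Tap2 peaks left out, the number of member promoters called higher at 1% O2 was 1 by fold rank and 4 by pileup rank. The second peak had pileups of 45, 47, 72, 85, 69 and 78 and was called by neither measure. Under at least 1 alternative it was called higher by fold rank at <0.1% O2 and by pileup rank at both levels. Its fold rank change at <0.1% O2 (+11.9) was +2.01 to +21.8 with 1 library left out. Both peaks also lie at the start of the predicted gene Gm20496.

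**Figure D3:**
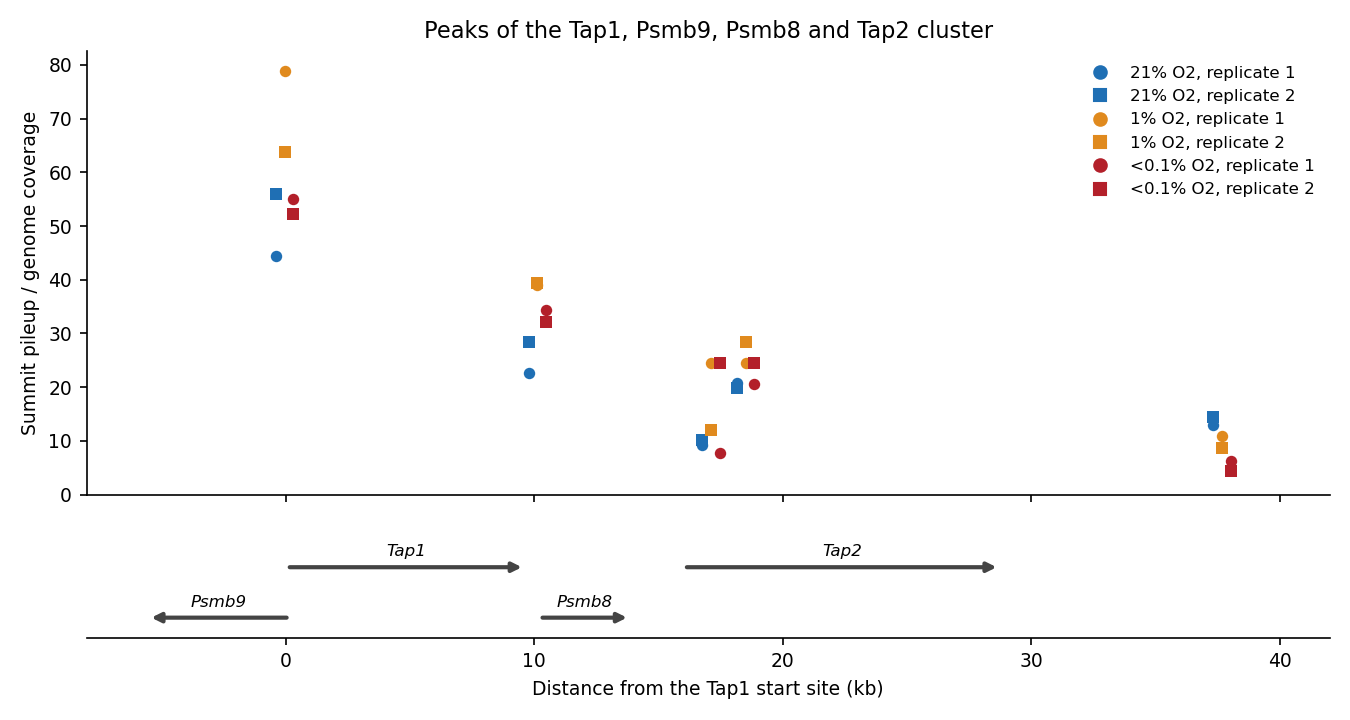
Summit pileup divided by genome coverage (vertical axis) of each peak in the cluster of Psmb9, Tap1, Psmb8 and Tap2, by distance from the Tap1 start site in kb, with the genes drawn as arrows below. Each point is a library, shifted sideways by O2 level. The promoters of Tap1 and Psmb9 and of Psmb8 lie higher at 1% O2 than at 21% O2, and the peak downstream of Tap2 falls from 13.0 and 14.4 at 21% O2 to 6.27 and 4.40 at <0.1% O2.

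Tapbp encodes tapasin. Its promoter held 2 peaks, chr17:33919434-33919826 and chr17:33919982-33920969, which also lie at the start of Gm19412. The second had its median summit 786 bases downstream of the nearest GENCODE start of Tapbp. Its pileups were 49 and 74 at 21% O2, 109 and 94 at 1% O2, then 103 and 89 at <0.1% O2, so all 4 hypoxic libraries were above both normoxic ones. Per genome coverage they were 22.7 and 31.4, then 37.2 and 31.4, then 30.8 and 28.0, so that at <0.1% O2 they lay within the normoxic range. The pileup rank changed by +6.03 and +9.55 points, short of a call, and was called by whole-list rank at both levels (+12.6 and +14.3). With 1 library left out, the change was +2.78 to +9.28 at 1% O2 and +6.29 to +12.8 at <0.1% O2, the last value enough for a call. Its fold ranks were only 1.18 to 3.67 in the 6 libraries, with local backgrounds of 13.4 to 25.4 fragments, and were not called. The first peak was present in all normoxic and 1% O2 libraries (pileups 41, 74, 109 and 71) and in neither <0.1% O2 library. In 21% O2 replicate 2 and 1% O2 replicate 1 it was part of a wider library peak (1421 and 1551 bp) that spanned both Tapbp peaks, so its own signal was separate in 1 library of each of these groups.

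Nlrc5 encodes the transactivator of class I promoters. Its promoter peak, chr8:94433931-94434544, also lies at the start of 9330175E14Rik and had low pileups, and among the ranked member promoters the first Tap2 peak alone had as low or lower ones, in 4 of the 6 libraries. The pileups were 24 and 37 at 21% O2, 53 and 36 at 1% O2, then 49 and 42 at <0.1% O2, and their ranks overlapped and were not called. The fold rank fell from 33.6 ± 3.39 to 23 ± 5.34 at <0.1% O2 (-10.6, called). This fall was not called without 21% O2 replicate 2 (-8.22), without <0.1% O2 replicate 2 (-6.84), by q-value rank (-1.29), by whole-list rank (-5.77) or after subtraction of the trend with GC content (-6.40). At 1% O2 the fold ranks of 40.5 and 16.8 lay on either side of the normoxic 31.2 and 36.0.

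Irf1 encodes interferon regulatory factor 1, which is itself induced by interferon and binds ISRE letters. Its promoter peak, chr11:53769603-53770712, had pileups of 144 and 156 at 21% O2, 231 and 221 at 1% O2, then 213 and 193 at <0.1% O2. The pileup ranks were 85.3 and 77.1, 83.3 and 85.2, and 83.2 and 85.7, and the fold ranks 92.5 and 78.0, 81.7 and 88.1, and 89.2 and 92.3. The groups overlapped in both measures, with changes from -0.35 to +5.49 points. At <0.1% O2 it was called higher by both measures after subtraction of the trend with GC content (+11.4 in fold rank, +12 in pileup rank), and by fold rank without 21% O2 replicate 1 (+12.7). By fold and by pileup it ranked among the strongest member promoters in every library.

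Of the 8 peaks at no promoter, 5 were present in all 6 libraries and could be ranked. By fold rank at 1% O2, 1 was lower (20.2% of all 15473 ranked peaks outside promoters were) and 0 higher (20.6% of all), and at <0.1% O2 1 was lower (14.5% of all) and 1 higher (25.5% of all). By pileup rank 1 was lower (17.4% of all) and 3 higher (20.2% of all) at 1% O2, and 2 were lower (12.8% of all) and 3 higher (29.5% of all) at <0.1% O2.

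The largest fall in fold rank at the member loci was that of a 1995 bp peak in intergenic DNA downstream of Tap2, chr17:34223865-34225859. The summit pileup was 28 and 34 at 21% O2, 32 and 26 at 1% O2, then 21 and 14 at <0.1% O2. Per genome coverage it was 13.0 and 14.4, then 10.9 and 8.69, then 6.27 and 4.40, with no overlap between any of the groups. The fold rank fell from 51.8 ± 0.589 to 19.1 ± 7.40 at 1% O2 and 3.70 ± 3.25 at <0.1% O2 (SD, n = 2), called lower at both levels and between them (-15.4). The pileup rank fell by 12.6 and 16.2 points. The 4 calls against 21% O2 held with any single library left out. With a stricter peak threshold (-log10 q of 5 or more) or with equal list lengths the peak was no longer in all 6 libraries. This was also the one peak whose sequence was partly repeated: 87.1% of its 76-base stretches occurred once in mm10, while all stretches of the other 26 peaks did.

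Of 2 ranked peaks inside Nlrc5, the first, chr8:94492096-94492773, lay 19539 bases from the nearest Nlrc5 start site over a coding exon. Its pileups were 77 and 75 at 21% O2, 150 and 154 at 1% O2, then 163 and 141 at <0.1% O2. The pileup rank rose by 15.2 and 20.4 points, called at both levels, though the rise at 1% O2 was +8.79 and not called without 21% O2 replicate 2. The fold rank changed by -3.22 and +6.99 and was not called. With 1 library left out, it changed by -11.8 to +5.31 at 1% O2 and by -1.54 to +15.5 at <0.1% O2.

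The second, chr8:94497793-94498481, lay 25318 bases from that start, overlapped a coding exon and had its summit in an intron. It rose most of all peaks at the member loci by pileup rank. The pileups were 37 and 33 at 21% O2, 113 and 100 at 1% O2, then 101 and 93 at <0.1% O2. Per genome coverage this was a 2.31-fold and a 1.91-fold rise (log2 +1.21 and +0.93). The pileup rank rose by 30.1 and 31.9 points. The fold rank rose by 20.7 points at <0.1% O2 (called, and +11.0 without 21% O2 replicate 2). At 1% O2 it rose by 12.6 points with overlapping groups, and by 2.86 to 22.3 points with 1 library left out. The local background rose with the pileup, from 3.87 and 4.17 fragments at 21% O2 to 8.65 to 10.7 in hypoxia.

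The sequences around the summits of the falling peak downstream of Tap2 (chr17:34225113-34225312, plus strand) and of the rising Nlrc5 peak (chr8:94497981-94498180, plus strand) are shown as the elements with the largest changes, 200 bases each of mm10.
downstream of Tap2: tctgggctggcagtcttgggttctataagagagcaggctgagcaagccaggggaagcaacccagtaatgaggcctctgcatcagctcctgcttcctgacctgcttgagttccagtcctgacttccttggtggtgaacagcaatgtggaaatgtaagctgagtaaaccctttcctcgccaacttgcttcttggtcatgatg
Nlrc5 intron: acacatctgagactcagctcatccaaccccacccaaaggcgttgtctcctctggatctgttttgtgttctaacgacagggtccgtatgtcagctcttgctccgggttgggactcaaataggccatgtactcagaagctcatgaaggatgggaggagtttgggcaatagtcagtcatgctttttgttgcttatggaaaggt

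Neither window held any of the letters searched. Of all 15473 ranked summit windows outside promoters, 2.60% held the ISRE, 7.39% GAS, 22.9% CCAAT, 10.2% the CRE core, 1.95% NF-κB and 24.9% the hypoxia response core.

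Upstream of H2-D1, an intergenic peak at chr17:35257932-35258435 with its summit at -4403 from the GENCODE start rose much as the promoter did. Its pileups were 34 and 46 at 21% O2, 95 and 83 at 1% O2, then 80 and 72 at <0.1% O2, and its pileup rank rose by 17.2 and 15.4 points, called at both levels with any single library left out. All 4 hypoxic fold ranks (13.9 to 19.2) were above both normoxic ones (10.7 and 9.28), but the changes of +7.44 and +6.56 points were short of a call, which q-value ranks reached (+17.2 and +14.6). The last of the 5, a 291 bp peak downstream of Nlrc5 at chr8:94528289-94528579, had pileups of 71, 83, 83, 106, 73 and 75 in library order. Its pileup rank fell by 13.6 points at <0.1% O2, which was -8.56 and not called without <0.1% O2 replicate 1, and -4.54 by whole-list rank.

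**Figure D4:**
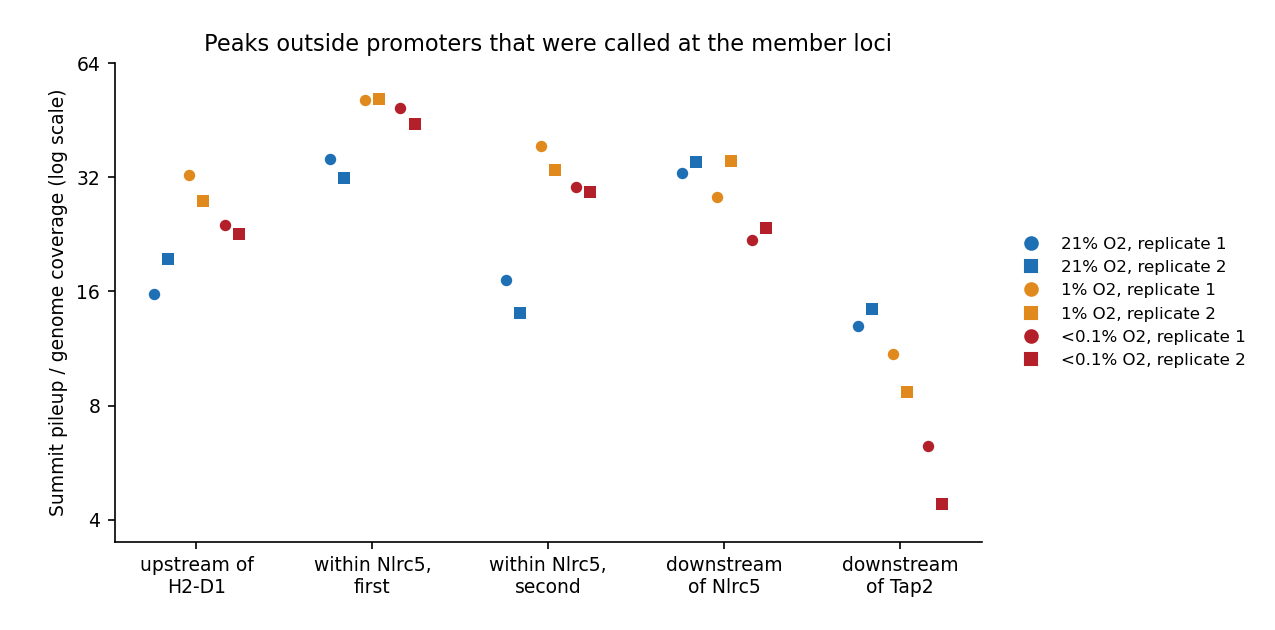
Summit pileup divided by genome coverage (vertical axis, log scale) of the 5 peaks outside promoters at the member loci that were present in all 6 libraries. Colours mark the O2 level, circles replicate 1 and squares replicate 2. The peaks upstream of H2-D1 and within Nlrc5 lie higher in all 4 hypoxic libraries, and the peak downstream of Tap2 falls in steps to 6.27 and 4.40 at <0.1% O2.

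As to presence, 0 of the 27 peaks were gained at 1% O2 (10.6% of all 41308 consensus peaks were), and 0 were lost (1.01% of all). At <0.1% O2, 0 were gained (10.1% of all) and 1 was lost (1.52% of all), the first Tapbp peak described above. Of the other 4 peaks missing from some library, 1 lay at the Rgl2 promoter beside Tapbp and 3 at no promoter, these with low pileups. An intergenic peak beyond H2-D1 (chr17:35274695-35274995) was found in 21% O2 replicate 1 and both <0.1% O2 libraries with pileups of 12, 31 and 24. A peak 8257 bases from the H2-K1 start (chr17:33991836-33992087) was missing from 21% O2 replicate 1 and <0.1% O2 replicate 2 and had pileups of 21 to 38 elsewhere. An intronic Nlrc5 peak (chr8:94485887-94486137) was missing from 21% O2 replicate 2.

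Of the promoters of other genes that the 10 kb window takes in, 7 were ranked. By fold rank 1 was lower and 1 higher at 1% O2, and 0 were lower and 1 higher at <0.1% O2, and by pileup rank 1 was lower and 1 higher at each level, to be read against the shares of all promoter peaks called that are given above. The one that rose in all of these was the promoter of Trim69, a ubiquitin ligase gene next to B2m (chr2:122160791-122162041). Its fold ranks were 28.0 and 28.6 at 21% O2, 44.0 and 41.3 at 1% O2, then 50.1 and 65.2 at <0.1% O2, rises of 14.3 and 29.3 points, while B2m beside it fell. Its pileup rank rose by 10.6 and 27.3 points, of which the first was lost without 21% O2 replicate 2 (+9.61) or 1% O2 replicate 1 (+9.67). The promoter of Rgl2, beside Tapbp (chr17:33929188-33930070), had pileup ranks of 40.9 and 40.5, 36.5 and 32.7, and 17.0 and 14.1, a fall of 25.2 points at <0.1% O2. Its fold rank changed by -3.41 at 1% O2 and -9.20 at <0.1% O2, neither called. These neighbours were named after their values were seen.

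The other genes of the pathway were followed by their strongest promoter peak, and the shares of all promoter peaks called, given above, apply to them too. Among 16 other class I genes, 9 (H2-Q1, H2-Q2, H2-Q6, H2-Q7, H2-Q10, H2-T3, H2-T24, H2-M2 and H2-M5) had no promoter peak in any library, and 5 could be ranked. By pileup rank 0 of these 5 were lower and 2 higher at 1% O2 (median +7.57), and 0 lower and 3 higher at <0.1% O2 (median +11.1). H2-Q4, a class Ib gene, was called higher at both levels by fold rank (+16.2 and +14.1) and pileup rank (+18.4 and +11.9). Mr1, which presents vitamin B metabolites, was higher by pileup rank at <0.1% O2 (+11.1). Cd1d1, which presents lipids, was higher at 1% O2 (+29.6 in fold rank) and changed by -8.82 at <0.1% O2, which was not called.

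Among 6 loading chaperones and trimming enzymes, by fold rank and by pileup rank, 1 was lower and 0 higher at each level. That gene was Erap1, the aminopeptidase that trims peptides in the endoplasmic reticulum. Its fold rank fell from 76.3 to 63.3 at 1% O2 and 31.2 at <0.1% O2, and its pileup rank by 13.4 and 40.6 points. Lnpep, a related aminopeptidase (-5.36 in fold rank at <0.1% O2), and Canx, the chaperone calnexin (+4.57), were not called.

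Of 7 other proteasome genes, 4 were lower and 1 higher by pileup rank at each level (medians -10.5 and -17.7), and by fold rank 2 were lower and 3 higher at 1% O2 and 2 lower and 0 higher at <0.1% O2. Psme3, an activator cap subunit, fell by 31.3 and Psmb7, a constitutive catalytic subunit, by 27.0 points in fold rank at <0.1% O2. Psmb6, the constitutive subunit that Psmb9 replaces, rose at 1% O2 by 24.1 in fold rank and 11.8 in pileup rank, and at <0.1% O2 changed by +13.7 with overlapping groups in fold rank and rose by 13.1 in pileup rank. Psmb10, the remaining immunoproteasome catalytic subunit, rose by 18.2 in fold rank at 1% O2 and changed by +0.84 in pileup rank, not called. At <0.1% O2 it changed by +8.64 in fold rank and -3.08 in pileup rank, neither called.

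Among 8 factors that bind class I promoters, 2 were lower and 1 higher by fold rank at each level, and by pileup rank 0 were called at 1% O2 and 3 were lower at <0.1% O2. Creb1, which binds CRE letters, fell by 16.8 and Nfyb, a CCAAT-binding subunit, by 16.0 points in fold rank at <0.1% O2. Rfxank, a subunit of the RFX complex on the SXY module, rose by 13.3, and Nfya, another CCAAT-binding subunit, changed by +9.0 without a call.

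Of 16 interferon and NF-κB signalling genes, 15 were ranked. Irf8, a myeloid factor, had no consensus promoter peak. By fold rank 2 were lower and 2 higher at 1% O2 and 2 lower and 0 higher at <0.1% O2, with medians of -0.81 and -1.16. By pileup rank 2 were lower and 3 higher, then 2 lower and 1 higher. Nfkb1, which encodes the p50 subunit precursor, fell by 26.9 points in fold rank and 35.4 in pileup rank at <0.1% O2, and Tyk2, a kinase of the interferon receptors, by 12.8 in fold rank. Rela, the p65 subunit gene, rose by 12.9 in fold rank at 1% O2 and changed by +14.0 with overlapping groups at <0.1% O2. Irf3 changed at <0.1% O2 by +8.94 in fold rank, not called, and +10.4 in pileup rank, called.

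Of 5 MHC class II genes, 2 had a consensus promoter peak and none was ranked. That of H2-Eb1, a class II beta chain gene, was present in all 4 hypoxic libraries and neither normoxic one, and was named after its values were seen. Ciita, the class II transactivator, and Cd74, the invariant chain, had no promoter peak in any library. Of 8 hypoxia reference genes, 4 were lower and 0 higher by fold rank at <0.1% O2 (median -5.36), and 1 was lower and 2 higher by pileup rank (median +6.13). Ldha fell by 27.9 and Slc2a1, the glucose transporter, by 21.4 points in fold rank, whereas Vegfa changed by +7.06 and Pdk1 by +6.31, not called. In pileup rank Ldha fell by 14.5, Slc2a1 changed by -0.15 and Vegfa by +9.67, neither called, and Pdk1 rose by 13.9. Of the glial markers, 5 of 8 were lower and 1 higher by fold rank at <0.1% O2 (median -10.7), among them Cd44 (-20.9) and Slc1a3 (-20.8), while Sox2 rose by 21.4 and Vim changed by +0.31. In pileup rank Cd44 fell by 10.7, and Slc1a3 (-8.99), Sox2 (-1.99) and Vim (-3.90) were not called.

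**Figure D5:**
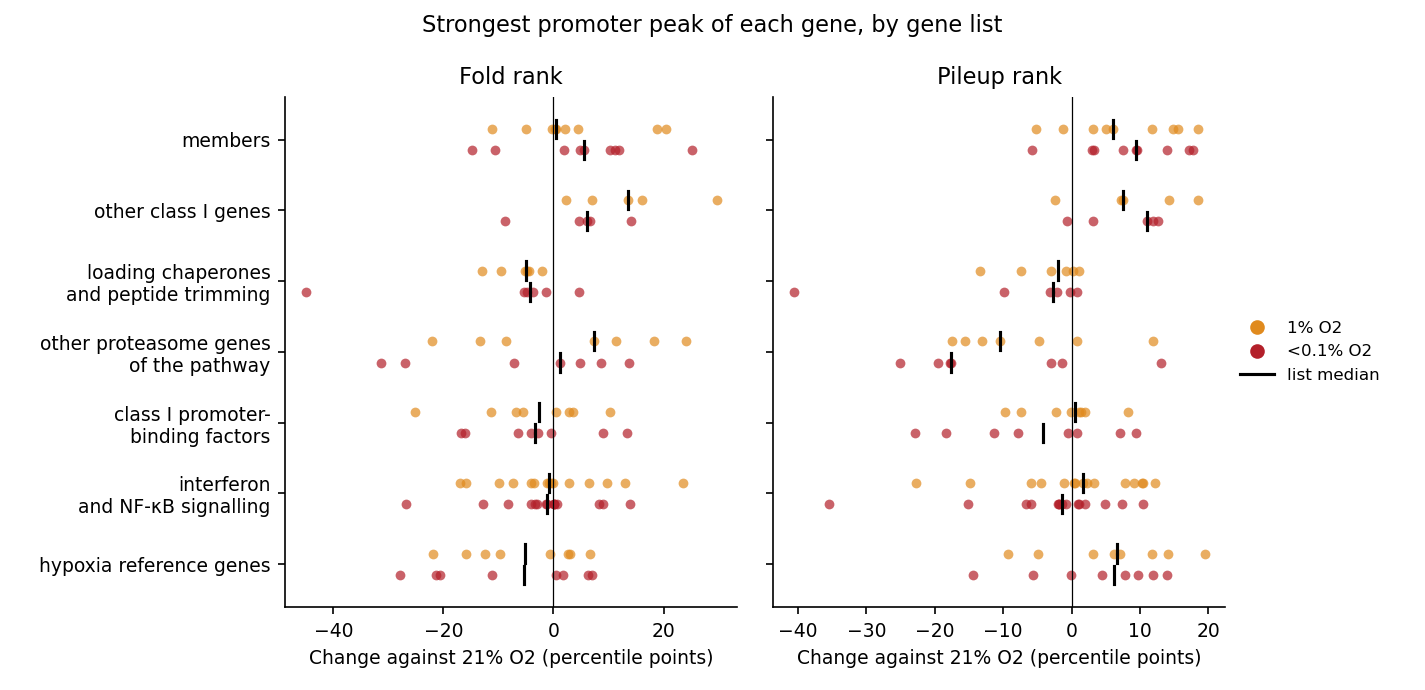
Change against 21% O2, in percentile points, of the strongest promoter peak of each gene in 7 lists, by fold rank (left) and pileup rank (right). Each point is a gene (a shared peak is drawn once), colours mark 1% and <0.1% O2, and black bars are list medians. By pileup rank most of the members lie above 0 at both levels, and the other proteasome genes have medians of -10.5 and -17.7.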

How the data were processed

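ATACseq peaks were called by the authors in each of 6 libraries. Per the labels and methods, 2x76 bp reads were trimmed with Trimmomatic and aligned to mm10 with Bowtie2 2.2.5. Duplicates (Picard), mitochondrial reads and pairs at or under a mapping quality of 30 were removed, and peaks were called per library with MACS2 2.1.1.2 at q of 0.001 and filtered for blacklisted regions. The deposited lists hold for each peak a fold (a ratio of pileup to local background, each plus 1), a -log10 p-value, a -log10 q-value, a score (not used) and the summit.

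From the deposited fold and -log10 p-value, whole-number pileups were recovered for 100% of peaks in every library, with a largest misfit of 0.00115 in log10 units. Consensus peaks were built as in the study (stretches common to a replicate pair, if longer than 200 bp, joined across the 3 conditions), and each took the highest overlapping library value. Ranks, calls and shares were computed over the whole table with Python 3.11.15, numpy 2.4.6, pandas 2.3.3 and scipy 1.17.1, after the scripts were tested on simulated data. A genome coverage of 2.16 to 3.35 fragments limits precision.

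All 10 member genes were named. In each other list, the 2 genes that fell most and the 2 that rose most in fold rank at <0.1% O2 were named, as were genes without a peak and called peaks outside promoters. Members and lists were chosen with earlier results of these data known. Alternatives covered the ranking value, GC content, overlap, peak threshold, list length, promoter window, size of a called change and each library left out.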

Additional observations from a re-analysis of the deposited data

Results flagged for a closer look

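At 3 promoters of neighbouring genes, both libraries moved one way at 1% O2 and both the other way at <0.1% O2, against both normoxic libraries. The difference between the hypoxic groups was not tested, since 2 libraries against 2 cannot go below p = 0.33 in an exact permutation test, and these peaks were named after their values were seen. The promoter of the microRNA gene Mir7671, near Irf1, changed by -4.97 points in fold rank at 1% O2 and by +9.03 at <0.1% O2, and by -3.13 and +5.09 in pileup rank. Between <0.1% and 1% O2 its fold rank was 14.0 points higher, enough for a call. By whole-list rank its fold rank change at 1% O2 was +0.89, so that the signs were no longer opposite. The promoter of Zbtb22, a zinc finger gene near Tapbp, changed by -11.3 and +6.61 in fold rank, and was called 17.9 points higher at <0.1% than at 1% O2. By q-value rank the first of these was +1.56, and in pileup rank the changes were +2.93 and +5.14, neither opposite in sign nor called. With 1 library left out, the fold rank change at 1% O2 was -15.9 to -6.59, the last short of a call. That at <0.1% O2 was +2.40 to +10.8. One of the promoter peaks of Cpne2, a copine gene near Nlrc5, changed by +2.74 and -9.58 in pileup rank, and was called lower at <0.1% than at 1% O2 (-12.3). Without <0.1% O2 replicate 2 the change at <0.1% O2 was -1.13 and the difference between the hypoxic groups -3.88, not called, and with the GC trend subtracted they were +4.38 and -0.28.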

How the results depend on the processing

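The counts below are of the 10 member promoters called, and medians are of their change in points. Ranking by -log10 q, in place of the fold rank, gave 0 lower (17.1% of all promoter peaks were) and 5 higher (12.3% of all) at 1% O2 (median +7.41). At <0.1% O2 it gave 0 lower (32.3% of all). Ranks within the whole peak list gave fold rank counts of 0 lower at 1% O2 (6.60% of all, member median +6.45) and 0 lower at <0.1% O2 (17.4% of all). In pileup rank they gave a member median of +12.8 at 1% O2, and 7 higher at <0.1% O2 (15.9% of all, member median +14.2). The whole lists are longer in all hypoxic libraries, and in them all promoter peaks had pileup rank medians of +3.10 and +0.02 and fold rank medians of +2.16 and +0.10. With the GC trend subtracted, <0.1% O2 gave 1 lower (21.6% of all) and 5 higher (16.2% of all) by fold rank (median +11.7). By pileup rank it gave 6 higher (15.7% of all, median +13.8). The medians of all promoter peaks were then -0.39 in fold rank and -0.52 in pileup rank. A threshold of -log10 q of 5 or more gave 1 gained peak at each level. Equal list length gave 1 higher at 1% O2 by fold rank (12.5% of all), with a median of -0.0020. It gave a pileup rank median of +6.23 at 1% O2, 5 higher by pileup rank at <0.1% O2 (11.5% of all), and 2 lost peaks at <0.1% O2. A promoter window of 500 bp, and the Tap2 peaks left out (chosen after seeing the data), each gave 1 higher at 1% O2 by fold rank. A call at 5 points gave by pileup rank 1 lower at 1% O2, and 1 lower and 5 higher at <0.1% O2. A call at 20 points gave by fold rank 0 lower and 1 higher at 1% O2 and 0 lower and 1 higher at <0.1% O2, and by pileup rank 0 higher at each level. Shares of all promoter peaks were not computed for the 500 bp window, calls at 5 or 20 points, the replicate block or a library left out. Shares of all consensus peaks gained or lost were not computed for any alternative. An overlap of 1 bp moved none of these results, and a window of 5 kb, which bears only on gained and lost peaks, moved none of those 4 counts. The cause of each shift was not tested.

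Leaving out each library in turn, with ranks kept, gave medians of +0.80 to +7.47 (fold rank, 1% O2), +4.50 to +9.02 (fold rank, <0.1% O2), +7.51 to +10.8 (pileup rank, 1% O2) and +5.25 to +11.4 (pileup rank, <0.1% O2). By fold rank it gave 0 to 2 lower and 2 to 3 higher at 1% O2, and 1 to 2 lower and 2 to 4 higher at <0.1% O2. By pileup rank it gave 0 lower and 5 higher at 1% O2, and 0 lower and 3 to 6 higher at <0.1% O2. It gave 0 to 2 gained peaks at each level, 0 to 1 lost at 1% O2 and 1 lost at <0.1% O2. A lone library makes the call easier by construction.

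The replicate numbers are shared by the groups, but same-numbered libraries did not deviate together (correlations of -0.05, -0.04 and 0.03 across peaks). The replicate block moved 1 count, from 2 to 3 higher by fold rank at 1% O2, and with the GC trend subtracted it gave, at <0.1% O2, 1 lower and 5 higher by fold rank and 6 higher by pileup rank. Of 88 changes of single peaks, with the peak that Tap1 and Psmb9 share counted once, 29 changed sign under at least 1 alternative, 1 of them among the 35 that were called, the Zbtb22 promoter near Tapbp in fold rank at 1% O2, which was +1.56 by -log10 q. Of the 53 changes that were not called, 29 were called under at least 1 alternative other than leaving out a library, and of the 35 that were, 7 were lost under one. With a library left out, 21 of the 53 were called and 13 of the 35 were lost. The main limits are 2 libraries per group, hypoxic libraries that were all deeper, and values that exist only where a peak was called.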

Other observations

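Library peaks at the member loci that were not shared by both replicates of any condition belong to no consensus peak. There were 5, all in hypoxic libraries, which were more numerous and deeper than the normoxic ones and had longer peak lists. No share of such peaks over the whole series was computed. A peak between Tap2 and its downstream element had a pileup of 30 in 1% O2 replicate 1 (chr17:34218674-34219268) and 30 in <0.1% O2 replicate 1 (chr17:34218682-34219021). Within Nlrc5, a peak had a pileup of 26 in 1% O2 replicate 2 (chr8:94506292-94506635) and 32 in <0.1% O2 replicate 1 (chr8:94506395-94506653), and another had 23 in 1% O2 replicate 1 (chr8:94515624-94516979).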
